A study of Mus musculus with 8 samples.

Results

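Alcam encodes an adhesion molecule of leukocytes, and Cd6, Cd5 and Cd5l encode its receptor and the closest relatives of that receptor in the scavenger receptor cysteine-rich (SRCR) family. These 4 genes, of 51826 in the count table, were described in total splenocytes of mice given all-trans-retinoic acid (tRA) or vehicle. Alcam was chosen by its difference between the same groups, in which the study called it as a differentially expressed gene (DEG), and the other genes were added for their relation to it with results of these data known. The differences of the 4 genes between tRA and control are therefore given as a description, without a test.

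ALCAM (CD166) is an immunoglobulin-family protein of antigen-presenting cells, activated lymphocytes, endothelium and stroma that binds CD6 on T cells and also other ALCAM molecules. The contact between ALCAM and CD6 forms at the synapse of a T cell with a dendritic cell. CD6 and CD5 are surface receptors of T cells that sit beside the T cell receptor and tune its signal, and CD5 also marks B-1a cells. CD5L, also called AIM, is a secreted SRCR protein of tissue macrophages, among them those of the splenic red pulp.

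The study sought genes that tRA, an active metabolite of vitamin A, raises in spleens taken without induction of lupus. Its stated interest was in candidates linked to the activation of conventional dendritic cells. RNA was sequenced from total splenocytes, treated with red blood cell lysis buffer, of female Balb/c mice with no pristane injection. The control group (n = 4) received the vehicle, canola oil, and the tRA group (n = 4) received tRA at 1 mg/kg body weight by mouth each day from weaning until 3 months of age. The treatment label names tRA for all 8 mice, so the groups follow the sample titles and the study's text, which speaks of 4 mice per group. Counts assigned to genes totaled between 30919272 and 37539631 per mouse in the control group and between 31810417 and 35165876 in the tRA group. Mice of the same group varied beyond counting noise (chi-square 12.9 to 65.4 per degree of freedom for pairs). Levels are counts per 1000000 counts (CPM), scaled by the TMM method, and differences are log2 fold changes of tRA over control.

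The cell markers fitted the tissue label. All 12 T cell markers and all 10 B cell markers were among the 16484 genes that passed the filter on low counts. Of 14 genes of stroma and endothelium, 11 passed, while Pdpn (6 counts over 8 mice), Ccl19 (6 counts) and Madcam1 (44 counts), which mark fibroblastic stroma and sinus-lining cells, did not. Alcam, Cd6, Cd5 and Cd5l all passed, each through its counts in both groups.

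Alcam (ENSMUSG00000022636), the ligand, lies on chromosome 16 from 52248996 to 52454074 on the minus strand of GRCm38. Its level was 30.1, 30.9, 27.6 and 28.6 CPM in control mice 1 to 4 and 39.1, 37.8, 39.9 and 38.8 CPM in tRA mice 1 to 4. The 4 tRA mice all lay above the 4 control mice, and the lowest tRA mouse was 6.91 CPM above the highest control mouse. The mean was 29.3 ± 1.48 CPM (SD, n = 4) in the control group and 38.9 ± 0.858 CPM (SD, n = 4) in the tRA group, which is 32.8% higher, with a log2 fold change of 0.41 (standard error 0.066). These values rest on 885 to 1471 counts per mouse. Counting error alone gives a coefficient of variation of 3.18% at the control counts and 2.77% at the tRA counts, and the observed values were 5.05% and 2.21%, so the tRA mice were as close to each other as counting allows.

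Alcam was the only gene of the 4 whose groups did not overlap. Over all genes tested, 1.91% had all tRA mice above all control mice and 1.63% had all of them below. The contrast that chose Alcam is the same one, so this count carries no information of its own. A positive log2 fold change at least as large as that of Alcam was seen in 615 of the 16484 genes. Over all genes the median log2 fold change was 0.0014 and the median of its absolute value 0.11.

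**Figure D1:**
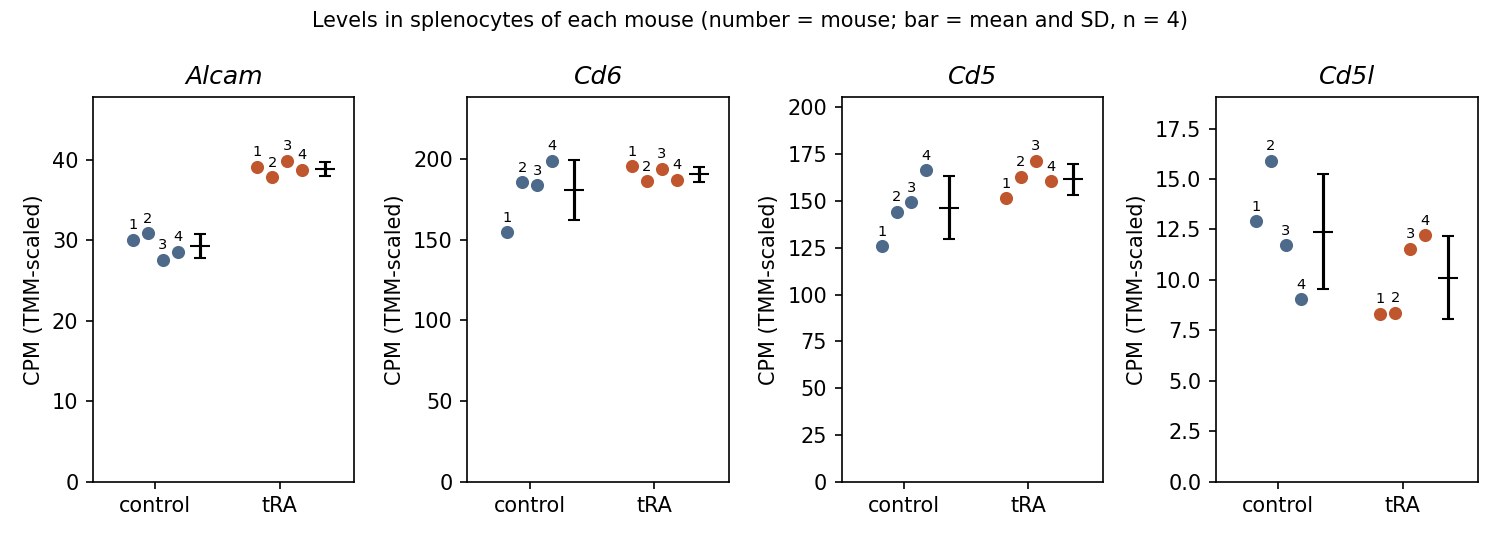
Level of Alcam, Cd6, Cd5 and Cd5l in splenocytes of each mouse, in TMM-scaled CPM on a linear axis that starts at 0, for control (blue, n = 4) and tRA (orange, n = 4). Numbers name the mouse, bars give the mean and SD, and the tRA mice lie between 37.8 and 39.9 CPM for Alcam, above the control mice, and the groups overlap for Cd6, Cd5 and Cd5l.

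Cd6 (ENSMUSG00000024670) encodes the receptor for ALCAM on T cells and lies on chromosome 19 from 10789341 to 10830058 on the minus strand. Its level was 154, 185, 184 and 199 CPM in control mice 1 to 4 and 195, 186, 194 and 187 CPM in tRA mice 1 to 4. Control mouse 1 was the lowest and control mouse 4 the highest of the 8, so all tRA mice lay within the range of the controls. The mean was 181 ± 18.7 CPM (SD, n = 4) in the control group and 191 ± 4.62 CPM (SD, n = 4) in the tRA group, a log2 fold change of 0.077 (standard error 0.078). Without control replicate 1 it was 0.0098, and without control replicate 4 it was 0.13. Thus the difference in the receptor was smaller than the spread between control mice.

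Cd5 (ENSMUSG00000024669), the inhibitory relative of Cd6, lies on the same strand of chromosome 19 from 10717116 to 10739002, 50339 bp from Cd6. Its level was 126, 144, 149 and 166 CPM in control mice 1 to 4 and 152, 163, 172 and 160 CPM in tRA mice 1 to 4. As for Cd6, control mouse 1 was the lowest, and control mouse 4 lay above 3 of the tRA mice. The log2 fold change was 0.14 (standard error 0.085), and it was 0.077 without control replicate 1 and 0.21 without control replicate 4.

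Cd5l (ENSMUSG00000015854) lies on the plus strand of chromosome 3 from 87357881 to 87371073. Its level was 12.9, 15.9, 11.7 and 9.05 CPM in control mice 1 to 4 and 8.34, 8.38, 11.6 and 12.2 CPM in tRA mice 1 to 4. Control mouse 2 stood highest and tRA mice 1 and 2 lowest, while control mouse 4 lay below tRA mice 3 and 4, so the groups overlapped. The log2 fold change was -0.29 (standard error 0.19), and -0.15 without control replicate 2. Cd5l had the widest spread of the 4 genes relative to its mean, and its lowest count in a mouse was 266.

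Per kilobase of merged exons, which allows levels of different genes to be set side by side, Cd5 was the most abundant of the 4 genes. Its level over the 8 mice was 31.3 ± 2.96 CPM per kb (SD, n = 8), from 25.6 to 34.8. Cd6 followed at 23.3 ± 1.72 CPM per kb, from 19.4 to 24.9, below Cd5 in each mouse. Cd5l, at 5.53 ± 1.28 CPM per kb, and Alcam, at 4.79 ± 0.738 CPM per kb, had lower levels. Their order was not the same in all mice, since Cd5l was above Alcam in the 4 control mice and in tRA mice 3 and 4, and below it in tRA mice 1 and 2. On the same scale, Cd5 lay at the percentile 90.1 of all genes tested, Cd6 at 86.2, Cd5l at 55.9 and Alcam at 52.9. Both receptor genes were thus near the top of the expressed genes and the ligand near the middle, as read in a mixture of all splenocytes.

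The balance of receptor to ligand was compared as the ratio of levels per kb within each mouse. Cd6 to Alcam was 4.59, 5.36, 5.95 and 6.21 in control mice 1 to 4 and 4.46, 4.40, 4.34 and 4.31 in tRA mice 1 to 4. All tRA ratios lay below all control ratios and within a narrow range, with means of 5.53 ± 0.719 (SD, n = 4) in the control group and 4.38 ± 0.0657 (SD, n = 4) in the tRA group. The gap between the groups was small, since control mouse 1, which had the lowest Cd6, came close to the tRA mice. Cd5 to Alcam was 7.26 ± 1.06 in the control group and 6.005 ± 0.295 in the tRA group, with overlap. Cd6 to Cd5, the ratio of the 2 receptors, was 0.763 ± 0.0234 in the control group and 0.731 ± 0.0451 in the tRA group, also with overlap. Alcam to Cd5l was 0.699 ± 0.146 in the control group and 1.13 ± 0.217 in the tRA group. For that ratio the groups did not overlap, although control mouse 4, at 0.904, and tRA mouse 4, at 0.907, were almost equal. As the ratios with Alcam carry the value that chose it, they describe the mice and test nothing.

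Cd6 and Cd5 were read against T cell markers, because in bulk samples fewer cells of a type and less RNA per cell cannot be told apart. Of the 12 markers, 10 had a positive log2 fold change, with a median of 0.12 (0.058 without control replicate 1, 0.18 without control replicate 4), from -0.14 for the adaptor gene Lat to 0.22 for the costimulatory receptor gene Cd28. The summed level was 2047, 2088, 2294 and 2355 CPM in control mice 1 to 4 and 2446, 2323, 2319 and 2375 CPM in tRA mice 1 to 4, and the most abundant marker was Tcf7, at 409 ± 33.6 and 474 ± 24.9 CPM (SD, n = 4 each). Control mice 1 and 2 had the lowest sums, and control mouse 1 was also the lowest for Cd6 and Cd5. Relative to the mean log2 level of the markers, Cd6 differed between tRA and control by -0.018, within the SD of 0.095 among control mice and 0.040 among tRA mice. The value ranged from -0.053 without control replicate 1 to 0.021 without control replicate 2. Cd5 differed by 0.047, within the SD of 0.081 among control mice and 0.099 among tRA mice, and the value ranged from 0.0077 without tRA replicate 3 to 0.088 without tRA replicate 1. With all 8 mice, neither receptor gene therefore differed from the T cell markers by more than the mice differed among themselves, and the part of T cell number in their levels was not tested.

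Cd5 was also set against genes of B-1 cells. Of these 6 genes, 1 had a positive log2 fold change, Spn at 0.28, and the lowest was Bhlhe40 at -0.41, with a median of -0.18 (-0.061 without control replicate 3, -0.11 without tRA replicate 3). Relative to their mean, the difference of Cd5 was 0.33 with overlapping groups. The log2 level of Cd5 relative to them was 1.61, 1.75, 1.53 and 1.88 in control mice 1 to 4. In tRA mice 1 to 4 it was 1.72, 1.84, 2.36 and 2.15. Bhlhe40 was at 56.1 and 69.2 CPM in tRA mice 3 and 4, against 160 to 267 CPM in the other mice. The high values of Cd5 relative to the list in tRA mice 3 and 4 thus rest in part on Bhlhe40. The part of B-1 cells in the level of Cd5 was not tested. Cd5l was read against 12 genes of red pulp macrophages, of which Hmox1 was the most abundant and 9 had a negative log2 fold change, with a median of -0.066. Relative to them Cd5l differed by -0.19 with overlapping groups, more than the SD of 0.069 among control mice and less than the SD of 0.31 among tRA mice. Leaving out tRA replicate 2 gave -0.073, and leaving out tRA replicate 4 gave -0.305. The median of the red pulp list itself had no stable sign when a mouse was left out, from -0.23 without tRA replicate 3 to 0.083 without control replicate 2, and the part of these cells in the level of Cd5l was not tested.

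Alcam was also read against lists of cells that may carry it. Relative to the mean of 10 genes of conventional dendritic cells (cDCs), its log2 level was 0.81, 0.74, 0.60 and 0.36 in control mice 1 to 4 and 1.18, 1.03, 1.01 and 1.17 in tRA mice 1 to 4. All tRA mice were higher, by 0.47 in the mean. The difference was 0.31 relative to the T cell markers and 0.39 relative to the B cell markers, again without overlap. Relative to the genes of stroma and endothelium it was 0.46 with overlapping groups. There mouse 3 was the lowest of each group, at 3.17 in the control group and 3.65 in the tRA group. Relative to the genes of red pulp macrophages the difference was 0.50, also with overlapping groups. These differences lie close to the log2 fold change of Alcam itself, the value that chose it, so they describe the mice and say nothing about the number of any cell type. The cDC list itself had 4 genes with a positive and 6 with a negative log2 fold change, a median of -0.070 (-0.027 without control replicate 4, -0.15 without control replicate 1), and summed levels of 536 ± 39.8 CPM (SD, n = 4) in the control group and 537 ± 102 CPM (SD, n = 4) in the tRA group. Its values ranged from -0.23 for Clec10a to 0.27 for Cd209a, and its most abundant gene was Ccr7. Ccr7 and Dpp4, which T cells also express, made up most of the sum, so it does not read cDCs alone. The B cell list had 6 positive and 4 negative values with a median of 0.025 (-0.016 without control replicate 4, 0.066 without control replicate 1).

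A list of neutrophil precursor genes differed between the same groups as Alcam. All 12 genes had a negative log2 fold change, where 50.3% of all genes had a positive one, and the median was -0.85. Their summed level was 566, 716, 755 and 647 CPM in control mice 1 to 4 and 257, 323, 353 and 504 CPM in tRA mice 1 to 4, without overlap. Ngp, a granule protein gene, was the most abundant. DESeq2 gave a false discovery rate (FDR) under 0.1 to 4 of the 12 genes, Camp, Ngp, Ltf and Lcn2, where 0.198% of all genes reached it, and edgeR to 0 of them. Immediate early and heat shock genes also had a negative log2 fold change in 12 of 12 cases, with a median of -0.55 (-0.90 without tRA replicate 1), and DESeq2 gave an FDR under 0.1 to 3 of them, Jun, Egr1 and Bag3, and edgeR to 0. Over the 8 mice the most abundant of these was Fos, although Fosb had the higher mean in the control group. Their summed level was 16561, 15621, 16457 and 13620 CPM in control mice 1 to 4 and 14329, 12083, 5692 and 8018 CPM in tRA mice 1 to 4, and the groups overlapped through tRA mouse 1. All tRA mice lay below all control mice for 7 of the 12 neutrophil precursor genes, where 1.63% of all genes did. Of the immediate early and heat shock genes, 5 of 12 did so. Both lists were chosen with earlier results of these data known, so their counts describe the mice and test nothing. The part of either list in the level of Alcam was not tested.

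The remaining marker lists overlapped between the groups in their summed level. For monocytes that sum does not read the cells alone, as most of it came from Nr4a1, which is also an immediate early gene, at 1026 of 1445 CPM in the control group. The median log2 fold change was -0.15 for plasmacytoid dendritic cells (-0.29 without tRA replicate 3, 0.0061 without tRA replicate 1), 0.091 for monocytes (-0.059 without control replicate 1, 0.27 without control replicate 2), -0.17 for plasma cells, -0.065 for NK cells (-0.12 without control replicate 1, 0.053 without control replicate 3), 0.43 for erythroid cells (-0.16 without tRA replicate 3, 0.85 without control replicate 3) and 0.0017 for stroma and endothelium. The last of these had no stable sign, with values from -0.27 without tRA replicate 3 to 0.20 without control replicate 3, and -0.16 among genes with at least 10 counts in every sample.

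Over all genes, the quasi-likelihood test of edgeR, adjusted after Benjamini and Hochberg (FDR), gave 0 DEGs at an FDR under 0.1 (0.00%), against 1070 genes at an unadjusted p under 0.05 (6.49%, with 485 higher and 585 lower with tRA) and 27 DEGs by DESeq2 (0.198% of 13625 genes). The genes around Alcam, Cd6 and Cd5 were followed in 6 lists that held 79 genes, of which 69 were tested. The lists were chosen with earlier results of these data known, so their counts describe the mice. By edgeR 0 of the 69 had an FDR under 0.1. The count at an unadjusted p under 0.05 was 7 with a positive log2 fold change, against 2.94% of all genes, and 3 with a negative one, against 3.55% of all genes. Positive values were seen for 36 of the 69 genes and for 50.3% of all genes, and the median of the 69 was 0.0056.

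Of the partners that bind ALCAM, CD6, CD5 or CD5L, 8 of 10 were tested, 2 with a positive and 6 with a negative log2 fold change and a median of -0.098 (-0.064 without control replicate 3). Cdcp1, which encodes CD318, another ligand of CD6, had 52 counts over the 8 mice, and Il6, whose product has been described as a ligand of CD5, had 70 counts, so that neither was tested. Cd72, a B cell gene whose product has been described as a ligand of CD5, had 403 ± 36.2 CPM (SD, n = 4) in the control group and 369 ± 19.8 CPM (SD, n = 4) in the tRA group, with overlap. The galectin genes Lgals8, at 0.058, Lgals1, at 0.071, and Lgals3, at -0.059, and the tetraspanin gene Cd9, at -0.10, had small log2 fold changes. Cd36, which encodes a receptor for CD5L, was at -0.092.

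CD5L circulates bound to pentameric IgM, and Jchain and Ighm, which encode parts of that complex, had lower means with tRA. Jchain, the joining chain, was at 574, 537, 604 and 722 CPM in control mice 1 to 4 and 367, 541, 428 and 436 CPM in tRA mice 1 to 4. Only tRA mouse 2 reached into the control range, just above control mouse 2. The log2 fold change of Jchain was -0.46 (standard error 0.13), with an FDR of 0.757 by edgeR and 0.139 by DESeq2. Ighm, the IgM heavy chain, had a log2 fold change of -0.21 (standard error 0.11) and overlapping groups. Jchain is also the most abundant of 9 plasma cell genes, of which 6 had a negative log2 fold change. For 3 of the 9, Sdc1 (-0.17), Mzb1 (-0.31) and Tnfrsf17 (-0.78), all tRA mice lay below all control mice, where 1.63% of all genes did, and Sdc1 and Mzb1 are named for this after their values were seen. The 3 genes with a positive value were Prdm1 (0.11), Xbp1 (0.020) and Irf4 (0.0093). The plasma cell list was also chosen with earlier results of these data known, so its counts test nothing. The part of plasma cells in the level of Jchain and Ighm was not tested.

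All 9 genes that anchor ALCAM to actin or cut it from the surface had a positive log2 fold change, as 50.3% of all genes did, with a median of 0.067 and some values near 0. The largest was that of Actn1, an actin crosslinker. Its level was 175, 172, 149.8 and 180.4 CPM in control mice 1 to 4 and 194, 190.3, 191 and 211 CPM in tRA mice 1 to 4. The tRA mice all lay above the control mice, with a log2 fold change of 0.21 (standard error 0.073) and an FDR of 0.757 by edgeR. Its relative Actn4 was at 0.14 (standard error 0.073). Of the sheddases, Adam10 was at 0.18 (standard error 0.089) and Adam17 at 0.0056 (standard error 0.058). The log2 fold changes of the other linkers were 0.13 for Rdx, 0.067 for Msn, 0.040 for Sdcbp, which encodes syntenin-1, 0.023 for Ctnna1 and 0.010 for Ezr.

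The 18 genes that act downstream of CD6 and CD5 divided into 10 with a positive and 8 with a negative log2 fold change, with a median of 0.018, and -0.018 without tRA replicate 1. Lcp2 encodes SLP-76, an adaptor that the tail of CD6 binds, and it was the only gene of the 18 whose groups did not overlap, where 1.91% of all genes did so upward and 1.63% downward. Its level was 180.0, 190.4, 202 and 208 CPM in control mice 1 to 4 and 218, 210.1, 224 and 222 CPM in tRA mice 1 to 4. The log2 fold change of Lcp2 was 0.17 (standard error 0.065), with an FDR of 0.757 by edgeR. Grap2, which encodes the adaptor GADS, had the highest value, 0.19, and Lat the lowest, -0.14, both with overlapping groups. Ptpn6, the phosphatase SHP-1 that CD5 has been linked to, was the most abundant, at 843 ± 54.3 CPM in the control group and 853 ± 33.9 CPM in the tRA group (SD, n = 4 each).

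Of 4 genes upstream or downstream of Cd5l, 3 had a negative log2 fold change and the median was -0.030. Its sign turned with library size alone as the scaling (0.0024) and when control replicate 2 (0.068), tRA replicate 1 (0.0043) or tRA replicate 4 (0.025) was left out. The liver X receptor genes Nr1h3 and Nr1h2 were at -0.042 and -0.043. Spic, which red pulp macrophages need, was at -0.018, and Fasn, whose product CD5L binds inside cells, at 0.030.

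Other SRCR genes gave the widest range. Of 20, 14 were tested, 8 with a positive and 6 with a negative log2 fold change and a median of 0.11. Leaving out control replicate 3 gave a median of -0.0056, and leaving out tRA replicate 3 gave -0.041. The list was chosen with earlier results of these data known, so a count of its separated genes tests nothing. For 3 of the 14 all tRA mice lay above all control mice, where 1.91% of all genes did. The clearest was 5830411N06Rik, a receptor gene of gamma delta T cells known as Scart2, at 2.98, 6.16, 7.28 and 4.01 CPM in control mice 1 to 4 and 12.6, 10.7, 17.3 and 13.5 CPM in tRA mice 1 to 4. Its log2 fold change was 1.41 (standard error 0.26), with an FDR of 0.757 by edgeR and 6.18e-05 by DESeq2. Its relative Cd163l1, or Scart1, was at 0.990 ± 0.253 CPM in the control group and 1.67 ± 0.194 CPM in the tRA group (SD, n = 4 each), a log2 fold change of 0.76 with an FDR of 0.757 by edgeR. Prss12, a secreted protease gene with 82 counts over all mice, was at 0.94 (standard error 0.39) with the same FDR. The lowest value was -0.35 for Hpn, and the most abundant gene, Lgals3bp, was at 0.092.

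Among other immunoglobulin-family adhesion genes, to which Alcam belongs by structure, 16 of 18 were tested, 6 with a positive and 10 with a negative log2 fold change and a median of -0.036 (-0.0052 without control replicate 3, -0.12 without tRA replicate 3). L1cam had the highest value, 0.28 (standard error 0.096), with overlapping groups. Cadm3 had the lowest, -0.64 (standard error 0.18), with 3.57, 3.42, 3.55 and 4.78 CPM in control mice 1 to 4 and 1.99, 2.58, 2.44 and 2.81 CPM in tRA mice 1 to 4. All tRA mice were lower than all control mice for Cadm3, and the FDR was 0.757 by edgeR. The most abundant gene, Pecam1, was at 0.0017 (standard error 0.055). Over the 6 lists together, the groups did not overlap upward for 6 of the 69 genes (8.70%, against 1.91% of all genes) and downward for 2 (2.90%, against 1.63% of all genes). Apart from the genes given above, these were Icam2 (0.13) and Ncam1 (-0.59), named after their values were seen. A log2 fold change at least as high as that of Alcam was seen in 3 of the 69 genes, all of the SRCR list. Among all genes, 615 of 16484 reached it, a similar share. As the lists were chosen with earlier results of these data known, these counts describe the mice and test nothing.

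**Figure D2:**
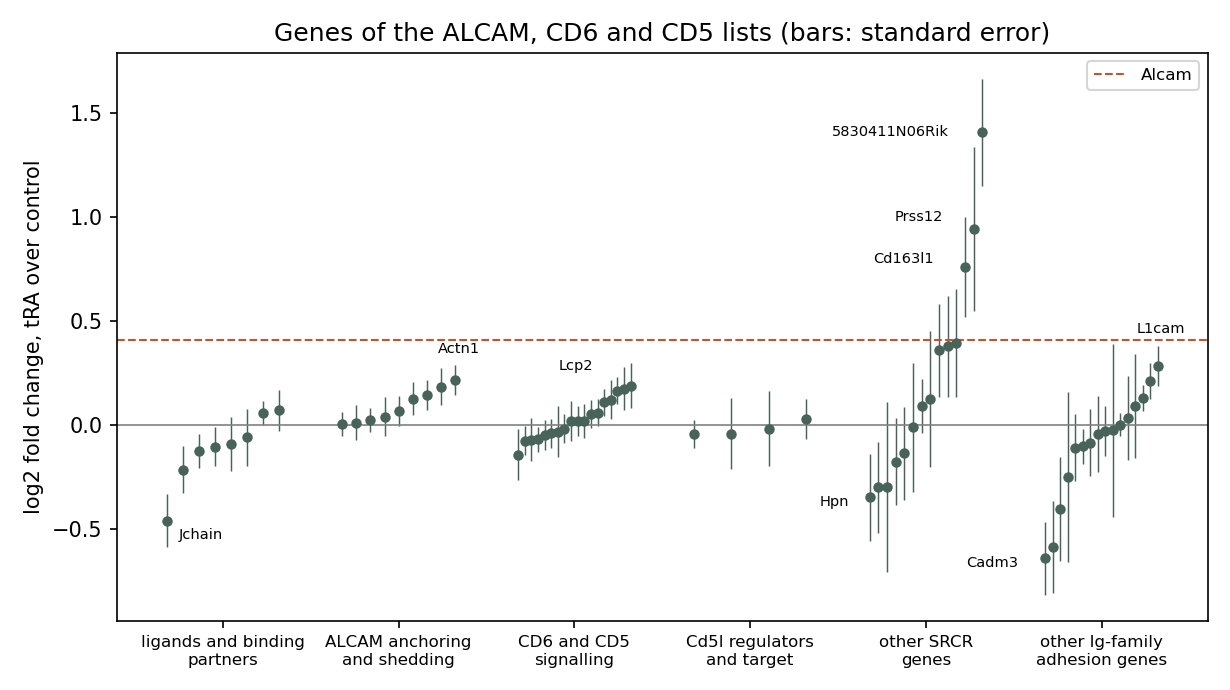
Log2 fold change of tRA over control for each tested gene of the 6 lists, sorted within the list, with bars of 1 standard error. The dashed line marks Alcam at 0.41. The SRCR genes reach from -0.35 to 1.41.

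The genes whose values over the 8 mice were most like those of Alcam were found by the root mean square difference of log2 levels, each centred on its mean over the mice, among 13562 other genes with a mean of at least 1 CPM. They were Rcor3, at 0.079, Atp2b1, at 0.080, 1810006J02Rik, a long noncoding RNA, at 0.082, Tnfrsf26, at 0.083, and Mmab, at 0.088. Rcor3 encodes a REST corepressor, Atp2b1 a calcium pump of the plasma membrane, Tnfrsf26 a decoy receptor and Mmab an enzyme of cobalamin metabolism. For each of the 5 the tRA mice all lay above the control mice, with log2 fold changes from 0.29 for Rcor3 to 0.38 for Tnfrsf26. The level of Atp2b1 was 146, 137, 121 and 130.4 CPM in control mice 1 to 4 and 171, 163, 159 and 182 CPM in tRA mice 1 to 4. As the 5 genes were picked for their likeness to Alcam over the same mice, their separation of the groups follows from that choice.

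**Figure D3:**
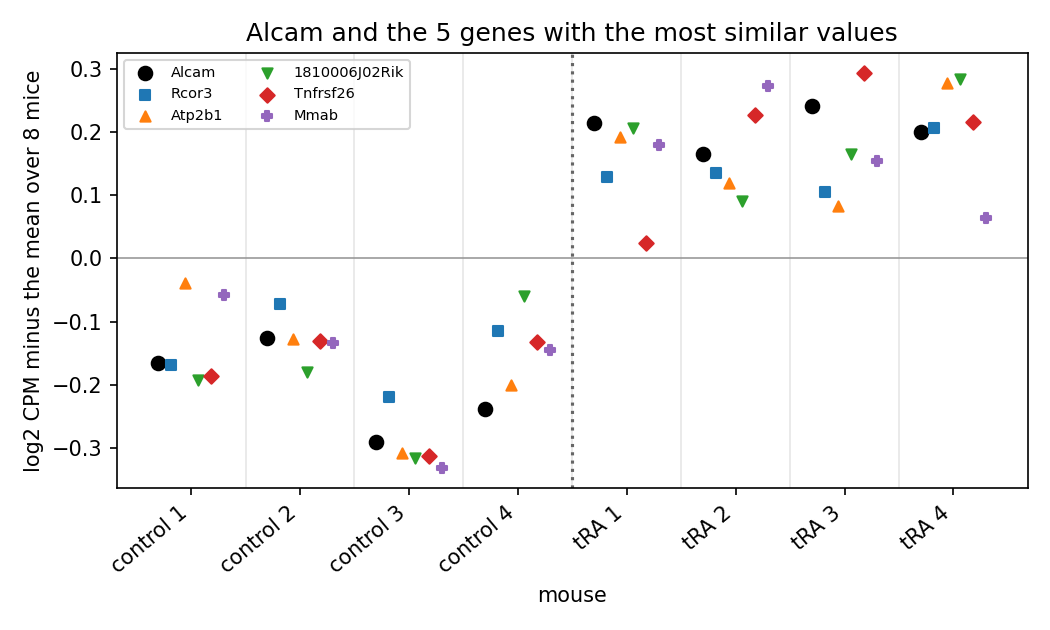
Log2 CPM of Alcam (black) and of the 5 genes with the most similar values, each minus its mean over the 8 mice, in each control and tRA mouse. All 6 genes are below their mean in the 4 control mice and above it in the 4 tRA mice.

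Cd6 and Cd5 were close to each other, with a difference of 0.068 by the same measure, and 50 of the 13562 genes were closer to Cd6 than Cd5 was. The nearest to Cd6 were Vsir, a checkpoint receptor gene, at 0.033, Ncln at 0.041 and Man2c1 at 0.041. The nearest to Cd5 were Pmm2 at 0.035, Glipr1 at 0.040 and Il27ra, a cytokine receptor gene of lymphocytes, at 0.044. For Cd5l the nearest were Lpl, the lipoprotein lipase gene, at 0.13, the noncoding RNA 2610037D02Rik at 0.14 and Ccdc28b at 0.15. These differences are larger than those for Cd6 and Cd5, but Cd5l also varied more between mice. Its SD of log2 levels over the 8 mice was 0.33, against 0.11 for Cd6 and 0.14 for Cd5. Alcam was farther from its receptor, at 0.20 from Cd6 and 0.19 from Cd5, and Cd5l was the farthest from Alcam at 0.43. Distances from Alcam carry the difference between the groups that chose it, so they describe the mice and test nothing.

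Position was examined because Cd6 and Cd5 are neighbours. Within 100000 bp of Alcam the only protein-coding gene was Cblb, a ubiquitin ligase gene that restrains T cell activation, 40948 bp away with a log2 fold change of 0.058 (standard error 0.065) and overlapping groups. Next to Cd5 lies Vps37c, 2489 bp away, at -0.12, and next to Cd6 lies Slc15a3, 9669 bp away, at -0.031. Tmem132a lies 27764 bp from Cd6 and is named because its groups did not overlap. It was at 3.63 ± 0.223 CPM in the control group and 2.98 ± 0.149 CPM in the tRA group (SD, n = 4 each). All tRA mice lay below all control mice, where 1.63% of all genes did, and the log2 fold change was -0.28 (standard error 0.14). Next to Cd5l lies Fcrl1, a B cell gene, 5314 bp away, at -0.046. None of the 4 genes overlaps another gene in the annotation, so their counts are not shared with an overlapping or antisense gene. Tmem132a was picked after its values were seen, and the others as the nearest to each of the 4 genes.

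Because tRA acts through nuclear receptors that bind short DNA motifs, the 250 bases before the start of transcription were searched in the promoter table of RefSeq (GRCm38.p6), which holds 3 of the 4 genes, Alcam, Cd5 and Cd5l. The search covered both strands for 4 core motifs of retinoic acid receptors, and no matches overlapped. Of 27025 promoters of the same length, 13.8% hold AGGTCA, 11.5% hold GGGTCA, 11.9% hold AGTTCA, 8.87% hold GGTTCA and 38.4% at least 1 of them. The window of Alcam (chr16:52453082-52453331, minus strand) holds none of these motifs, which says nothing of sites outside it, and it is rich in CG, with 22 CG pairs, more than 85.4% of promoters, and 69.2% G and C. It lies in the 5′ untranslated exon of the longest Alcam transcript in GENCODE M21, whose start is farther upstream. The windows of Cd5 and Cd5l hold AGTTCA once each and have 3 and 0 CG pairs, against a median of 6. They are shown 5′ to 3′ with the match in capitals, where TGAACT is AGTTCA on the other strand, to let the T cell gene and the macrophage gene be compared. The first is chr19:10739003-10739224 (minus strand, the 222 bases outside exons) and the second chr3:87357631-87357880 (plus strand), both upstream of the annotated exons.
Cd5: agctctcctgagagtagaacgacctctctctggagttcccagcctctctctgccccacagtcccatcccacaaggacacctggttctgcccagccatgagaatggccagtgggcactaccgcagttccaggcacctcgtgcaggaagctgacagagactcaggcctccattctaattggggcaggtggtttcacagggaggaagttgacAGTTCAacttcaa
Cd5l: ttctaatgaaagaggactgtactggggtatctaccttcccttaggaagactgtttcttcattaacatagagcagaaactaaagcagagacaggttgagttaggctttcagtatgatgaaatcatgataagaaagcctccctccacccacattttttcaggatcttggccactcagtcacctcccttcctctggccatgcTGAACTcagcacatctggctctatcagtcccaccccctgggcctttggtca
The match starts 41 bases before the RefSeq start in Cd5 and 51 bases before it in Cd5l. Matches of 6 letters are common, and they describe these windows without marking a binding site.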

How the data were processed

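RNA from total splenocytes of 4 control and 4 tRA mice was sequenced, and the authors deposited unnormalized gene counts. The paper describes trimming with ea-utils and Btrim, alignment with Bowtie2 and Tophat2 and counting with HTSeq, whereas the submitters' processing notes name STAR 2.5.2b, featureCounts 1.5.1, DESeq2 1.26.0 and GRCm38. Which of these made the counts, and whether counting used the strand, is not given in the sources used here. The authors also deposited their own DESeq2 comparison, which was not used. GENCODE M21 lists 51633 of the 51826 identifiers and lacks 193, and it gave symbols, positions and exon lengths.

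Fits used edgeR 4.0.16, limma 3.58.1 and DESeq2 1.42.0 under R 4.3.3. Genes were kept by filterByExpr (minimum count 10), normalized by TMM and compared by the quasi-likelihood test over all 8 libraries, with Benjamini-Hochberg adjustment over 16484 genes and an FDR threshold of 0.1. Log2 levels used a prior count of 1. The fits were tested on simulated data. Levels per kb used the merged exon length, 7121 bp for Alcam, 7968 bp for Cd6, 4928 bp for Cd5 and 2036 bp for Cd5l. Figures were drawn in Python 3.11.15 with matplotlib 3.10.9.

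The 4 genes and the 19 gene lists were chosen with earlier results of these data known, and 1 gene was taken out of the list of Cd5l regulators after the fits were run. Named were the 4 genes, every tested gene of the lists of partners, of anchoring and shedding and of Cd5l regulators, in other lists the most abundant gene, the highest and lowest log2 fold change and any gene past an FDR of 0.1, in the signalling and SRCR lists any gene whose groups did not overlap, and the genes nearest to each of the 4 in values or in position. Not every gene so named is given in the text. Icam2, Ncam1, Sdc1, Mzb1, Xbp1, Irf4, Fosb, Dpp4 and Tmem132a were added after their values were seen. Alternatives tried were each mouse left out in turn, the replicate number as a block, DESeq2, scaling by library size alone or by RLE, a filter of 10 counts in all samples, and no filter.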

Additional observations from a re-analysis of the deposited data

Results flagged for a closer look

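Among 244 groups of 4 mice examined, 11 had a mouse far from the other 3, where chance alone, at about 1 in 20, gives 12.2. None of these was the CPM of Alcam, Cd6, Cd5 or Cd5l. Relative to genes of stroma and endothelium, the log2 level of Alcam was 3.65 in tRA replicate 3 and from 4.48 to 4.62 in the other tRA mice. Vsir, the gene nearest to Cd6, was at 177 CPM in control replicate 1 and from 212 to 215 CPM in the other controls. Ptpn6 was at 803 CPM in tRA replicate 1 and from 865 to 874 CPM in the other tRA mice. Cd9 was at 44.4 CPM in control replicate 3, against 35.5 to 36.4 CPM in the other controls. Cadm3 was at 4.78 CPM in control replicate 4, against 3.42 to 3.57 CPM.

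Among marker genes, Camp was at 42.7 CPM in tRA replicate 4 (other tRA mice 25.2 to 26.9 CPM) and Cd209a at 11.5 CPM in tRA replicate 1 (13.8 to 14.0 CPM). In control replicate 3, Hspa1a was at 942 CPM (other controls 317 to 412 CPM) and Tcf4 at 95.0 CPM (107.5 to 109 CPM). The summed level of monocyte genes was 1506 CPM in control replicate 2 (other controls 1424 to 1426 CPM), and that of NK cell genes was 267 CPM in tRA replicate 4 (303 to 307 CPM in the other tRA mice).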

How the results depend on the processing

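The log2 fold changes of Alcam, Cd6, Cd5 and Cd5l kept their sign under every alternative run and moved by less than 1 SD of the mice. With 1 mouse left out they ranged from 0.38 to 0.44 for Alcam, from 0.0098 to 0.13 for Cd6, from 0.077 to 0.21 for Cd5 and from -0.42 to -0.15 for Cd5l. The number of DEGs was 27 with DESeq2 and 6 without a filter on low counts, against 0 by edgeR, and from 0 to 3 with 1 mouse left out, 3 without tRA replicate 4. Genes at an unadjusted p under 0.05 ranged from 657 without tRA replicate 4 to 2105 without tRA replicate 1. Genes whose groups did not overlap numbered 584 with all mice and from 856 to 2110 with 1 mouse left out, where 3 mice against 4 separate more easily. It was 884 without tRA replicate 2, 1057 without tRA replicate 3, 2110 without tRA replicate 1, and 1051, 1101, 1092 and 1060 without control replicates 1 to 4. The median of the SRCR list ranged from -0.041 without tRA replicate 3 to 0.22 without control replicate 2, and the cause was not tested.

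With the replicate number as a block, there were 0 DEGs and 1200 genes at an unadjusted p under 0.05, and the log2 fold change of Alcam was 0.41, of Cd6 0.083, of Cd5 0.15 and of Cd5l -0.29. The deviations of same-numbered mice correlated at 0.148, -0.0226, -0.0153 and 0.252. These values were not compared with those of differently numbered mice, so they cannot tell whether the numbers mark a pairing. At 266 to 511 counts, Cd5l had the least depth of the 4 genes, and the genes of partners with under 100 counts in all could not be tested.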
